A study of Mus musculus with 8 samples.

Results

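The genes described here encode the coats and cargo carriers of traffic between the endoplasmic reticulum (ER) and the Golgi: the COPII coat, the COPI coat, the p24 (TMED) proteins, and the receptors that load or retrieve cargo. The 41 genes were listed by name as parts of these machines, with earlier results of these data known, and each was read from the row of its symbol with the highest total over the 8 libraries. They are 41 of 23366 gene symbols in the table. Mia3, which encodes the collagen export receptor TANGO1, had 0 counts in each of the 8 libraries on its listed transcript, so 40 of 41 were tested.

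COPII vesicles bud from the ER when the GTPase SAR1 recruits the inner coat of SEC23 and SEC24 and the outer coat of SEC13 and SEC31. SEC24 is the subunit that binds cargo, and its paralogs differ in the export signals they read. COPI vesicles, built by the GTPase ARF1 and a coatomer of several subunits, carry escaped ER residents and receptors back from the Golgi. Fibroblasts send collagens and other matrix proteins out by this route, and several of the genes are known targets of the unfolded protein response.

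The RNA came from mouse embryonic fibroblasts (MEFs), cells grown out of embryos, on the C57BL/6 strain at passages 3 to 5. The 4 groups of 2 libraries were WT at 0 h in DMEM with 10% FBS (fed WT), WT after 12 h in glucose-free DMEM with 10% dialyzed FBS (starved WT), and cells labelled as kdm3a KO in the same media at 0 h and 12 h (fed and starved KO-labelled). Kdm3a encodes a demethylase of histone H3 lysine 9, and the study asked about its part in the control of autophagy. The labels state neither how the knockout was made nor that replicates are separate cultures or embryos. The p-values therefore measure only the spread between these libraries, which may be technical. The design has no 12 h culture in full medium and none in dialyzed serum plus glucose, so glucose loss, serum and time cannot be told apart. "Starved" below means all of these.

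Libraries held 38407520 to 53602289 counts with 1 row per gene. Kdm3a itself was read at 56.1 and 56.4 CPM in WT cells when fed and 176 and 185 when starved, and at 55.2 and 55.4 CPM in KO-labelled cells when fed and 65.4 and 66.7 when starved. The difference between the labels was -0.02 ± 0.043 (log2, adjusted p = 0.619) in fed cells and -1.45 ± 0.041 in starved cells. A loss of Kdm3a was thus not seen in the fed libraries, though counts over a whole transcript cannot show a lost exon, so these libraries are called KO-labelled. Xist was read at 0.939 to 1.54 CPM in WT and 869 to 1370 CPM in KO-labelled libraries, and counts of Uty, Kdm5d, Ddx3y and Eif2s3y, which lie on the Y chromosome, were 296 to 1251 per WT library and 0 to 2 per KO-labelled library, so genotype and sex of the cells cannot be told apart. All 12 fibroblast markers passed the filter on low counts. They summed to 17500 to 17900 CPM in fed and 13600 CPM in starved WT. In KO-labelled cells they summed to 7750 to 7810 CPM when fed and 5600 to 5610 when starved. Most of the sum in starved cells was Vim. It went from 4397 ± 3.8 to 11359 ± 52 CPM in WT and from 3621 ± 20 to 4297 ± 7.8 CPM in KO-labelled cells. With starvation 3 of the 12 rose and 7 fell in WT (36.7% and 44.8% of all genes tested). Col1a1 went from 4662 ± 127 to 247 ± 10 CPM there. Lum, a matrix proteoglycan, was at or near 0 in WT. The blood marker Ptprc, the endothelial markers Emcn and Cldn5 and the glial marker Sox10 had 0 counts throughout, and epithelial markers summed to at most 2.83 CPM. The endothelial list summed to 2.7 to 6.89 CPM in the other groups and to 53.2 to 55.5 CPM in starved WT, nearly all of it Kdr (2.06 ± 0.20 CPM in fed and 53.8 ± 1.5 in starved WT). The neural and glial list, led by Nes, summed to 197 to 198 CPM in fed WT, 65.9 to 73.7 in starved WT, 34.9 to 36.4 in fed and 15.5 to 18.1 in starved KO-labelled cells. Blood markers summed to 7 to 22.1 CPM in the other groups and to 53.2 to 54.3 CPM in starved KO-labelled cells. Most of the latter was Cd68 (3.49 ± 0.19 CPM in fed and 40.8 ± 0.15 in starved KO-labelled cells). Between the same groups Csf1r went from 0.418 ± 0.028 to 6.23 ± 0.28 CPM and Cd14 from 17.4 ± 0.79 to 6.29 ± 0.56 CPM. The skeletal muscle list summed to 0.503 to 2.21 CPM in the other groups and to 5.61 to 6.71 CPM in starved KO-labelled cells.

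As a whole the carrier genes took a larger share of the RNA in starved KO-labelled cells than in any other group. The 41 genes held 0.717 and 0.722% of all counts in WT when fed and 0.609 and 0.609% when starved, and 0.691 and 0.691% in KO-labelled cells when fed and 1.01 and 1.02% when starved. Comparing these shares between libraries amounts to scaling each library to its total. On the scale used for the tests, CPM after TMM scaling (counts scaled to a common library total that is adjusted for composition), the summed level of the genes was 6606 and 6634 CPM in WT when fed and 7674 and 7710.4 when starved, and 5868 and 5862 CPM in KO-labelled cells when fed and 10289 and 10313 when starved. The share fell with starvation in WT while the TMM-scaled sum rose, so the direction of the WT response depended on the scaling. The libraries of the 2 groups compared did not overlap for 37 of 40 genes in WT starvation (89% of all genes), 40 in KO-labelled starvation (90%), 36 between fed cells (87.3%) and 40 between starved cells (88.1%). In bulk RNA, fewer cells of a kind and less RNA per cell cannot be told apart.

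In WT cells, 24 of the 40 tested genes rose with starvation and 12 fell at an adjusted p under 0.05 (edgeR's quasi-likelihood test, Benjamini-Hochberg over 14418 genes), where 36.7% of all genes tested rose and 44.8% fell. Their median log2 fold change was 0.23, against -0.17 for all genes tested, and 1 gene (Sec24a) rose by more than 2-fold, against 15% of all genes. Scaling to library totals instead lowers the median of all genes by 0.456, to -0.626, against -0.229 for the members. Then 5 of the 40 rose and 28 fell, against 23.6% and 59.8% of all genes tested. The 5 were Sec24a, Sec24b, Sar1b, Sec31a and Copb1. In KO-labelled cells 35 rose and 5 fell, against 39.4% higher and 40.3% lower among all genes tested. The median there was 0.70, against -0.02 for all genes, and 15 of the 40 rose by more than 2-fold, against 13.2% of all genes. In KO-labelled cells library totals lower the median of all genes by 0.256, and 29 of the 40 then rose and 6 fell. Among all genes tested 29.6% rose and 50.2% fell there. With library totals 28.2% of all calls in WT and 37% in KO-labelled cells were higher, against 45% and 49.4% with TMM. Of the 40, 23 were called higher in both starvation comparisons, which share no library, 8 were called lower in WT and higher in KO-labelled cells, 4 fell in both, and Sec24b rose in WT and fell in KO-labelled cells. Over all genes tested these patterns were held by 28.2%, 5.38%, 30.2% and 4.21%.

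**Figure D1:**
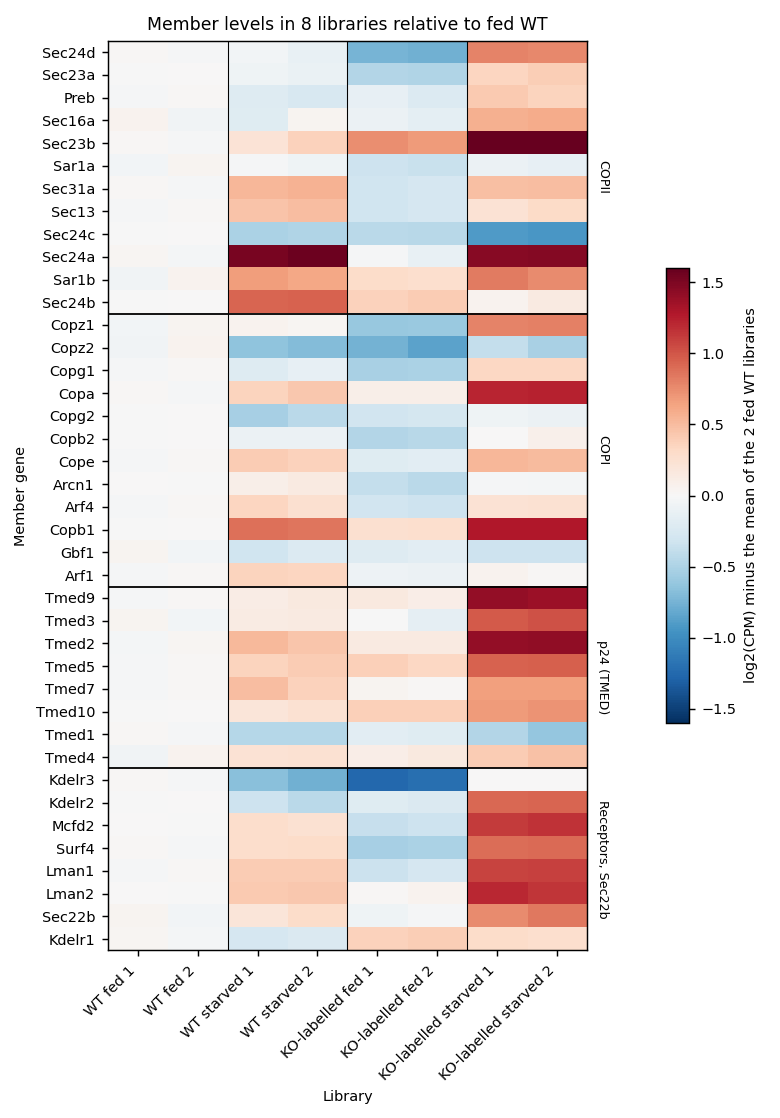
Levels of the 40 tested carrier genes (rows, ordered within each family by the difference between the starvation responses) in the 8 libraries (columns), as log2 CPM minus the mean of the 2 fed WT libraries. The starved KO-labelled libraries hold the highest value of the 8 for 25 of the 40 genes, and the fed KO-labelled libraries the lowest for 20 of the 40, against 21.8% and 23.9% of all genes tested.

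In each starvation comparison the highest and the lowest fold changes among the COPII genes were those of SEC24 paralogs. Of the 12 tested COPII genes, 6 rose and 3 fell with starvation in WT, against 36.7% and 44.8% of all genes tested. In KO-labelled cells 10 rose and 2 fell, against 39.4% and 40.3% of all genes. Sec24d, a cargo adaptor of the C/D pair that binds other signals than the A/B pair, was read at 147 and 143 CPM in WT cells when fed and 141 and 134 when starved, and at 86.7 and 85.0 CPM in KO-labelled cells when fed and 252 and 248 when starved. The fed KO-labelled libraries were the lowest and the starved KO-labelled libraries the highest; the WT groups did not overlap but lay close together. Starvation raised Sec24d by 1.54 ± 0.036 on the log2 scale in KO-labelled cells, while in WT the change was -0.08 ± 0.036 (adjusted p = 0.0533), called lower with a minimum of 5 CPM (-0.10) and with library totals (-0.53).

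Sec24a, of the A/B pair, rose in both genotypes. It was read at 38.3 and 36.7 CPM (fed WT), 107 and 111 (starved WT), 37.0 and 34.5 (fed KO-labelled) and 103 and 104 (starved KO-labelled), a rise of 1.54 ± 0.047 in WT and 1.53 ± 0.046 in KO-labelled cells. The difference between these responses was -0.01 ± 0.066 (adjusted p = 0.921), but it passed with library totals (0.19) and, in the other direction, without starved WT replicate 1 (-0.16). Sec24b, the partner paralog, was read at 92.2 and 93.0 CPM (fed WT), 176 and 178 (starved WT), 119.7 and 123 (fed KO-labelled) and 96.1 and 103 (starved KO-labelled). It rose in WT (0.94 ± 0.039) and fell in KO-labelled cells (-0.28 ± 0.038), so that its highest values were in starved WT cells. Sec24c, at 195 and 195 CPM (fed WT), 137 and 139 (starved WT), 144 and 144 (fed KO-labelled) and 104 and 102 (starved KO-labelled), fell in both (-0.50 ± 0.034 and -0.48 ± 0.034).

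Shares within a paralog set use counts per kilobase of transcript, taken from 1 library at a time, so they do not depend on the scaling between libraries. Among the 4 Sec24 genes, Sec24d made up 35.5 ± 0.47% of the summed CPM per kilobase in WT when fed and 30.0 ± 1.0% when starved, and 26.4 ± 0.28% in KO-labelled cells when fed and 52.4 ± 0.56% when starved (mean ± SD, n = 2). Sec24c was the largest share in fed cells, at 41.8 ± 0.35% in WT and 38.8 ± 0.013% in KO-labelled cells, and dropped to 26.4 ± 0.37% and 18.9 ± 0.27% after starvation. The share of Sec24a went up in WT, from 5.45 ± 0.12% to 14.1 ± 0.35%, and went from 6.52 ± 0.30% to 12.9 ± 0.097% in KO-labelled cells. After starvation the largest share was Sec24d in KO-labelled cells, while in starved WT cells Sec24b was at 29.5 ± 0.29%, a gap to Sec24d smaller than the SD of Sec24d.

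SEC23 is the GTPase-activating subunit that pairs with SEC24. Sec23a was read at 118 and 118 CPM in WT cells when fed and 113 and 109.6 when starved, and at 85.3 and 84.5 CPM in KO-labelled cells when fed and 149.9 and 155 when starved, and Sec23b at 52.9 and 51.9 CPM (fed WT), 61.1 and 67.5 (starved WT), 87.6 and 83.7 (fed KO-labelled) and 183 and 175 (starved KO-labelled). Sec23b was higher in KO-labelled cells both fed (0.71 ± 0.047) and starved (1.48 ± 0.046), and no KO-labelled library overlapped a WT library. Sec23a was the larger share of the pair in WT, at 60.5 ± 0.33% fed and 53.9 ± 2.2% starved, and the smaller in KO-labelled cells, at 40.1 ± 0.63% and 36.5 ± 1.3%. These shares use 1 row per gene, while Sec23b had 5 rows and Sec23a 1, and shares from summed rows were not computed. With starvation Sec23a rose by 0.85 ± 0.037 in KO-labelled cells, and its WT call of -0.09 ± 0.038 was lost under 8 of the alternatives tried and turned sign under a further 1.

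**Figure D2:**
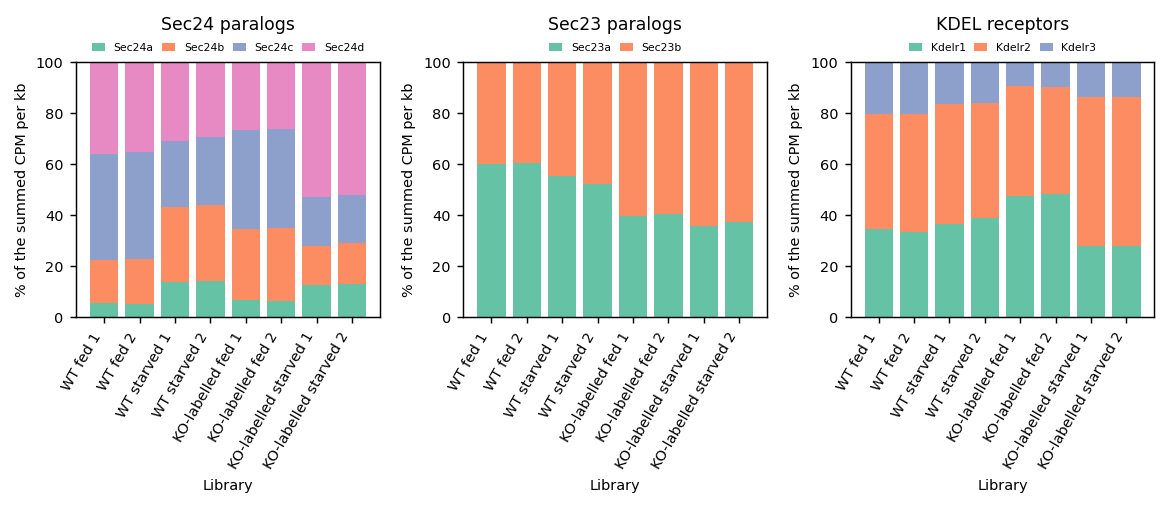
Share of each paralog in the summed CPM per kilobase of its set (y axis, %) for the Sec24, Sec23 and KDEL receptor genes in each of the 8 libraries (x axis). Sec24d makes up the largest part of the bar in the starved KO-labelled libraries, and Sec23b the larger part in all 4 KO-labelled libraries.

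None of the other COPII genes rose by more than 2-fold. Sar1a and Sar1b encode the GTPase that starts the coat. Sar1b was read at 29.1 and 31.3 CPM (fed WT), 48.1 and 46.5 (starved WT), 36.9 and 36.5 (fed KO-labelled) and 53.7 and 51.1 (starved KO-labelled) and rose in both genotypes (0.65 ± 0.057 and 0.51 ± 0.053), while Sar1a, at 239 and 252 CPM (fed WT), 242 and 233 (starved WT), 196 and 192 (fed KO-labelled) and 229 and 223 (starved KO-labelled), rose in KO-labelled cells by 0.22 ± 0.034 and differed by -0.05 ± 0.035 in WT (adjusted p = 0.223). Per kilobase Sar1a was the main form throughout, from 78.9 ± 0.21% of the pair in fed WT to 66.5 ± 0.36% in starved KO-labelled cells. The outer coat genes rose in both genotypes on the TMM scale, Sec31a by 0.55 ± 0.029 in WT and 0.78 ± 0.029 in KO-labelled cells. Sec13, read at 162 and 167 CPM (fed WT), 225 and 232 (starved WT), 132 and 136 (fed KO-labelled) and 193 and 203 (starved KO-labelled), rose by 0.48 ± 0.036 and 0.56 ± 0.035. Preb, the exchange factor that loads SAR1 with GTP, and Sec16a, the scaffold of ER exit sites, rose in KO-labelled cells (0.56 ± 0.041 and 0.71 ± 0.052). In WT Preb fell (-0.23 ± 0.043) and Sec16a differed by -0.08 ± 0.054 (adjusted p = 0.201); the Sec16a value was called higher without starved WT replicate 1 (0.11) and lower without starved WT replicate 2 (-0.12).

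In the COPI coat, 6 of 12 genes (50%) rose and 5 (41.7%) fell in WT with starvation, against 36.7% and 44.8% of all genes tested. In KO-labelled cells 11 rose and 1 fell, against 39.4% and 40.3% of all genes. The coatomer gene with the largest rise in KO-labelled cells was Copz1, of the zeta subunit. It was read at 141 and 149 CPM in WT cells when fed and 151 and 148 when starved, and at 95.8 and 96.6 CPM in KO-labelled cells when fed and 251 and 254 when starved. The WT groups overlapped (0.04 ± 0.036, adjusted p = 0.252), and the KO-labelled groups lay far apart (1.39 ± 0.035). In WT, Copz1 was called higher with DESeq2 (0.11), with its size factors in edgeR (0.11) and in the fit of 2 groups (0.12). It was called lower with library totals (-0.41). Without starved WT replicate 1 or 2 its WT value was 0.10 or 0.14. Copz2, the other zeta gene, was read at 35.7 and 38.3 CPM (fed WT), 23.8 and 22.9 (starved WT), 21.9 and 20.4 (fed KO-labelled) and 28.3 and 25.7 (starved KO-labelled). It was highest in fed WT, fell in WT (-0.67 ± 0.072) and rose in KO-labelled cells (0.35 ± 0.070).

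Both gamma subunit genes fell in WT and rose in KO-labelled cells. Copg1 was read at 405 and 412 CPM (fed WT), 353 and 373 (starved WT), 284 and 287 (fed KO-labelled) and 512 and 514 (starved KO-labelled), a change of -0.17 ± 0.030 in WT and 0.84 ± 0.030 in KO-labelled cells; its WT call was lost without starved WT replicate 1 (-0.06). Its paralog Copg2 was read at 57.3 and 57.9 CPM (fed WT), 39.9 and 42.7 (starved WT), 46.7 and 47.3 (fed KO-labelled) and 54.9 and 53.9 (starved KO-labelled), a fall of 0.48 ± 0.051 on the log2 scale in WT and a rise of 0.21 ± 0.047 in KO-labelled cells. Copg1 made up 87.2 ± 0.081% of the pair per kilobase in fed WT and 90.0 ± 0.14% in starved KO-labelled cells. Exons of Copg2 overlap those of Mest on the opposite strand, and without stranded counting reads of the pair cannot be told apart. The same holds for Arf4 with Pde12, Copa with Ncstn, Kdelr3 with Ddx17, Surf4 with Surf2, Tmed1 with Dnm2 and Tmed5 with Mtf2, while Tmed7 overlaps Ticam2 on the same strand.

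The other coatomer genes all rose in KO-labelled cells, by 0.38 to 1.13 on the log2 scale. Copb1, of the beta subunit, was read at 146 and 147 CPM (fed WT), 271 and 266 (starved WT), 176 and 177 (fed KO-labelled) and 357 and 355 (starved KO-labelled), and it rose in both genotypes (0.87 ± 0.031 in WT and 1.02 ± 0.030 in KO-labelled cells). Copa, of the alpha subunit, rose by 0.39 ± 0.029 in WT and by 1.13 ± 0.029 in KO-labelled cells, to 914 ± 9.6 CPM. Cope (epsilon) rose by 0.39 and 0.70, Arcn1 (delta) by 0.12 and 0.38, and Copb2 (beta prime) fell by 0.09 in WT and rose by 0.50 in KO-labelled cells; the WT call of Copb2 was lost with DESeq2 and without fed WT replicate 2 or either starved WT library.

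The GTPases that build the COPI coat and their activator moved less than most of the coatomer. Arf1 was read at 421 and 435 CPM (fed WT), 548 and 544 (starved WT), 404 and 399 (fed KO-labelled) and 443 and 433 (starved KO-labelled), with its highest values in starved WT cells. It rose by 0.35 ± 0.028 in WT and 0.13 ± 0.028 in KO-labelled cells, and with library totals both became falls of 0.11 and 0.13. Arf4, another ARF of the early Golgi, rose by 0.30 and 0.56. Gbf1, the exchange factor that activates these ARFs, was read at 161 and 151 CPM (fed WT), 125 and 134 (starved WT), 135 and 138 (fed KO-labelled) and 124 and 124 (starved KO-labelled) and fell in both genotypes (-0.27 ± 0.041 and -0.14 ± 0.040).

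The p24 proteins, encoded by the Tmed genes, cycle between ER and Golgi as hetero-oligomers and link certain cargo, such as GPI-anchored proteins, to the coats. In each starvation comparison 7 of the 8 rose and Tmed1 fell. Over all genes tested 36.7% rose and 44.8% fell in WT, and 39.4% rose and 40.3% fell in KO-labelled cells. Tmed9 was read at 171 and 175 CPM in WT cells when fed and 187 and 193 when starved, and at 192 and 185 CPM in KO-labelled cells when fed and 459 and 445 when starved, and Tmed2 at 263 and 272 CPM (fed WT), 382 and 363 (starved WT), 297 and 296 (fed KO-labelled) and 707 and 712 (starved KO-labelled). In both genes the starved KO-labelled libraries lay far above the other 3 groups. The rise was 1.26 ± 0.032 for Tmed9 and 1.26 ± 0.030 for Tmed2 in KO-labelled cells, against 0.14 ± 0.033 and 0.48 ± 0.031 in WT. Tmed3 rose by 1.07 ± 0.048 in KO-labelled and 0.14 ± 0.052 in WT cells, the WT call being lost without fed WT replicate 2 (0.09).

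Other Tmed genes moved by amounts more alike in the genotypes. Tmed10, the partner of Tmed2 in the best known p24 complex, was read at 154 and 155 CPM (fed WT), 176 and 182 (starved WT), 201 and 201 (fed KO-labelled) and 248 and 253 (starved KO-labelled). It rose by 0.22 in WT and 0.32 in KO-labelled cells and was higher in KO-labelled cells when fed (0.38 ± 0.032) and when starved (0.49 ± 0.032). Tmed4, Tmed5 and Tmed7 rose by 0.24, 0.38 and 0.44 in WT and by 0.31, 0.60 and 0.63 in KO-labelled cells. Tmed1, read at 61.9 and 60.8 CPM (fed WT), 44.8 and 44.9 (starved WT), 54.4 and 53.8 (fed KO-labelled) and 44.3 and 39.9 (starved KO-labelled), was lower in the starved libraries of each genotype (-0.45 ± 0.053 and -0.36 ± 0.051). With library totals, 6 of the 7 Tmed values that rose in WT lay below 0, and that of Tmed2 was 0.02 and not called.

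Cargo receptors had the largest median difference between the responses of the genotypes, at 1.06 on the log2 scale. The group holds the soluble cargo receptors, the KDEL receptors and the ER-Golgi SNARE Sec22b. All 8 of its genes had a larger (or less negative) response in KO-labelled cells, a call held by 34.1% of all genes tested. Of these genes, 6 rose in KO-labelled cells by more than 2-fold, against 13.2% of all genes. Surf4, an export receptor for soluble secreted proteins, was read at 456 and 447 CPM in WT cells when fed and 550.2 and 554 when starved, and at 314 and 317 CPM in KO-labelled cells when fed and 841 and 849 when starved. Mcfd2, the partner of the lectin Lman1 in a receptor for clotting factors, was read at 101 and 99.9 CPM (fed WT), 122 and 119 (starved WT), 77.7 and 80.3 (fed KO-labelled) and 219 and 224 (starved KO-labelled). In both genes fed KO-labelled cells were lowest and starved KO-labelled cells highest, and the rise was 1.42 ± 0.027 for Surf4 and 1.49 ± 0.036 for Mcfd2, against 0.29 ± 0.026 and 0.26 ± 0.037 in WT.

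Lman1 itself (ERGIC-53) went from 147 ± 5.4 to 386 ± 3.1 CPM in KO-labelled cells, a log2 change of 1.39 ± 0.033, and changed by 0.41 ± 0.033 in WT. Lman2 (VIP36), a related lectin, rose by 1.14 ± 0.031 and 0.43 ± 0.032, and Sec22b by 0.85 ± 0.046 and 0.24 ± 0.048. With library totals the WT values of Surf4, Mcfd2, Lman1, Lman2 and Sec22b were below 0, whereas those of KO-labelled cells stayed above 0 and called.

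KDEL receptors catch ER chaperones that reach the Golgi and return them in COPI vesicles. Kdelr3 was read at 49.6 and 48.6 CPM in WT cells when fed and 30.7 and 28.7 when starved, and at 20.4 and 21.4 CPM in KO-labelled cells when fed and 49.1 and 49.5 when starved. Starved KO-labelled cells reached the level of fed WT cells from the lowest start of the 4 groups. Kdelr3 fell in WT (-0.72 ± 0.058) and rose in KO-labelled cells (1.24 ± 0.056). Kdelr2 was read at 142 and 145 CPM (fed WT), 114 and 107 (starved WT), 126 and 123 (fed KO-labelled) and 272 and 273 (starved KO-labelled), and it too fell in WT (-0.38 ± 0.037) and rose in KO-labelled cells (1.13 ± 0.035).

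Kdelr1 did not rise in either genotype. It was read at 96.3 and 92.1 CPM (fed WT), 77.9 and 80.3 (starved WT), 121 and 123 (fed KO-labelled) and 115 and 114 (starved KO-labelled), so that KO-labelled libraries lay above all WT libraries and starvation lowered it in WT (-0.25 ± 0.041). In KO-labelled cells the change was -0.10 ± 0.038 (adjusted p = 0.0257), a call lost whichever of the KO-labelled libraries was left out (-0.10 to -0.08). Per kilobase Kdelr2 made up 45.6 ± 0.88% of the receptors in WT when fed and 46.1 ± 1.2% when starved, and 42.6 ± 0.80% in KO-labelled cells when fed and 58.3 ± 0.17% when starved, while Kdelr1 went from 48.1 ± 0.53% to 28.0 ± 0.23% in KO-labelled cells.

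**Figure D3:**
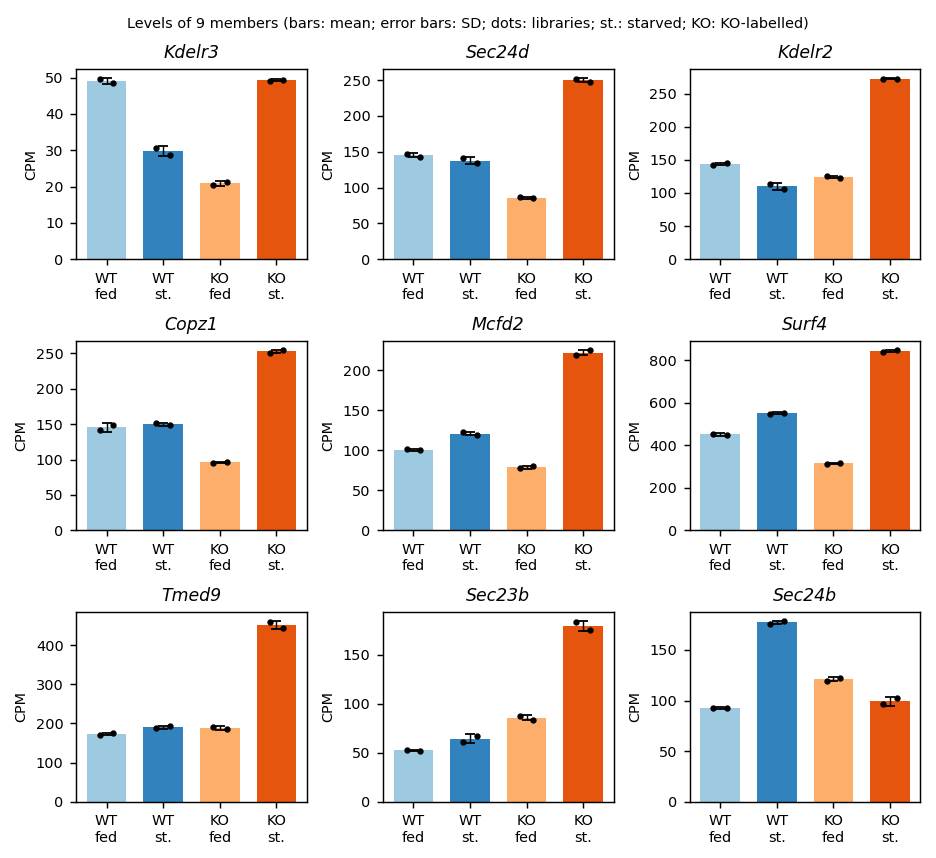
CPM of 9 carrier genes by group (bars are means, error bars SD, dots the 2 libraries of each group). In 7 of the 9 panels the starved KO-labelled bar is the tallest by a clear margin; Kdelr3 matches fed WT there, and Sec24b is tallest in starved WT.

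The test of the difference between the starvation responses (the interaction, KO-labelled minus WT) was higher for 30 of the 40 genes and lower for 2, against 34.1% and 30.4% of all genes tested. The median was 0.60, against 0.10 for all genes. Kdelr3 (1.96 ± 0.080), Sec24d (1.62 ± 0.051), Kdelr2 (1.51 ± 0.051) and Copz1 (1.35 ± 0.050) had the largest differences, and 9 genes differed upward by more than 2-fold, against 15.4% of all genes. Sec24b (-1.22 ± 0.055) and Arf1 (-0.22 ± 0.040) were the 2 lower ones; 64.5% of all genes passed in either direction. By family, 7 of 12 COPII, 10 of 12 COPI, 5 of 8 p24 and 8 of 8 receptor genes were higher. With DESeq2's size factors 26 were higher and 3 lower, and with library totals 37 and 1, where the Arf1 difference was -0.02 and not called. Library totals raise the median interaction of all genes by 0.197 and the higher share of all calls from 52.9 to 67%. Of all genes tested, 43.7% were then higher and 21.5% lower, and 30.1% and 34.6% with DESeq2's size factors. Without starved WT replicate 1 the lower count was 5.

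**Figure D4:**
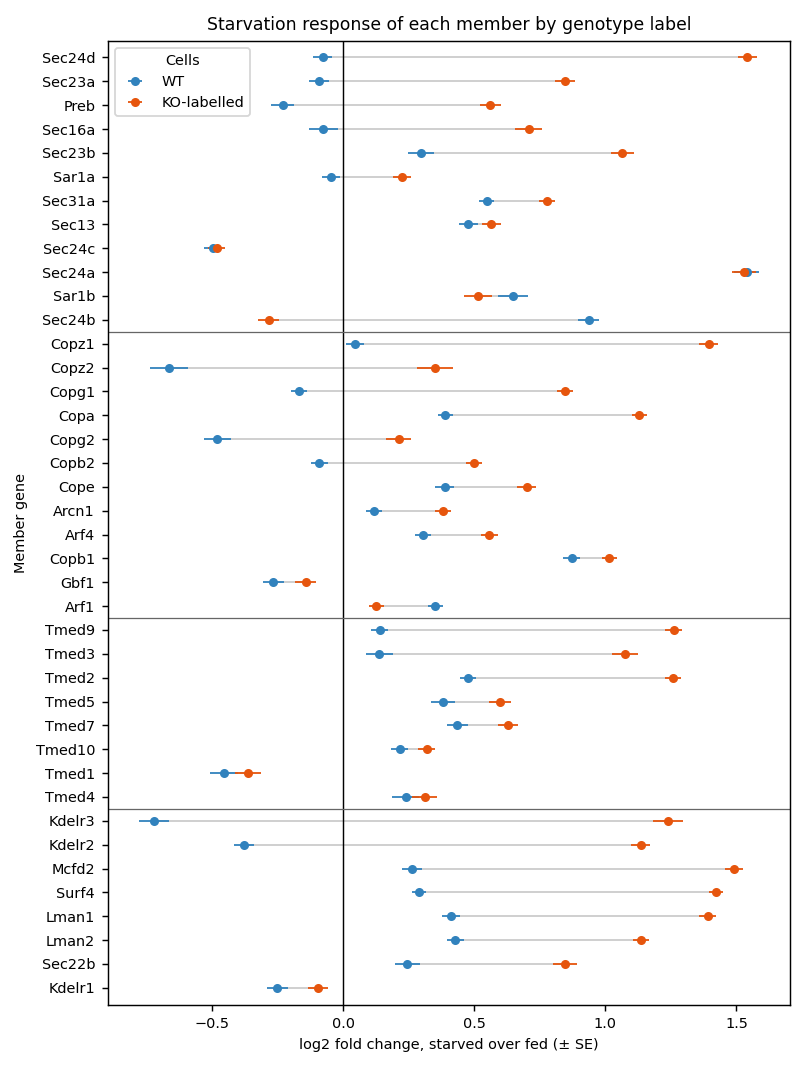
Log2 fold change of starved over fed cells (x axis, ± SE) for each tested carrier gene (y axis, grouped by family), in WT (blue) and KO-labelled cells (orange), joined by a grey line. The orange point lies right of the blue for most genes; Sec24b is the widest exception, and Sec24a and Sec24c have nearly the same value in both.

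Read across genotypes, the same levels gave a crossed pattern. In fed cells 24 of the 40 genes were lower and 11 higher in KO-labelled cells, against 39.8% lower and 34.5% higher among all genes tested, with a median of -0.18 against -0.06. In starved cells 29 were higher and 5 lower, against 41.9% and 37.7% of all genes, with a median of 0.47 against 0.07. The fed and starved comparisons share no library, and 15 of the 40 were lower in KO-labelled cells when fed and higher when starved, a pattern held by 7.6% of all genes tested. Library totals raise the median of all genes by 0.113 in fed and 0.316 in starved cells. With them 18 of the 40 were lower and 13 higher in fed cells, against 32.9% and 40.3% of all genes tested. In starved cells 37 were higher and 2 lower, against 54.2% and 26.2% of all genes tested. The higher share of all calls in starved cells went from 52.6 to 67.4%. With DESeq2 the lower count among the 40 in starved cells was 11.

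In fed cells Kdelr3 (-1.23 ± 0.056), Copz2 (-0.81 ± 0.069), Sec24d (-0.76 ± 0.036) and Copz1 (-0.60 ± 0.036) were lowest relative to WT. Sec23b (0.71), Sec24b (0.39 ± 0.039), Tmed10 and Kdelr1 (0.38 ± 0.038) were highest. In starved cells Sec23b was 2.79-fold higher in KO-labelled cells, Kdelr2 2.47-fold, Tmed9 2.37-fold and Tmed2 1.90-fold. The lower genes there were Sec24b (-0.83 ± 0.039), Sec24c (-0.42 ± 0.035), Arf1 (-0.32 ± 0.028), Sec13 (-0.21 ± 0.035) and Arcn1 (-0.14 ± 0.031); with library totals Sec13 and Arcn1 turned to higher values (0.11 and 0.18). The fibroblast markers moved with the label as well, in both directions: in fed cells 5 of 12 were higher and 7 lower in KO-labelled cells. Col1a2, a collagen chain, went from 6109.8 ± 127 CPM in fed WT to 264 ± 4.8 in fed KO-labelled cells (and 367 ± 20 in starved WT). Col3a1, another collagen chain, went from 621 ± 7.8 to 909 ± 6.6 CPM and the receptor gene Pdgfra from 30.7 ± 1.8 to 97.5 ± 0.48 CPM in fed cells. The part of these marker genes in the results was not tested.

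Promoters were searched because members of several families moved together. RefSeq promoter sequences (GRCm38.p6, 250 bases before to 50 after each start) matched 36 of the 41 genes by symbol; Arcn1, Kdelr2, Lman1, Tmed2 and Tmed7 were not searched. TGACGTGG, the core of the unfolded protein response element, was sought on both strands. It lay in promoters of 7 of the 36 genes, or 19.4% (Arf1, Copb1, Copb2, Gbf1, Kdelr3, Sec23a and Sec24d). By promoter it lay in 8 of 40 (20%), where overlapping windows of Arf1 hold the same match and count separately. The motif lies in 0.676% of 32851 promoters of all genes and in 0.904% of 13270 promoters of genes tested here. The ER stress elements, whose CCACG can share letters with CCACGTCA, the reverse of the motif above, and which are named ERSE and ERSE-II, were in none of the 40 windows (0.119% and 0.0365% of all promoters), and TGATGNAA, a core of ATF4 composite elements, was in 1 (Kdelr1) (3.97% of all promoters).

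The 120 bases before the start are shown for 4 of these genes, Sec24d and Kdelr3 as the genes with the largest difference between the responses and Copb1 and Gbf1 as genes with the same letters and small differences. They lie at chr3:123267376-123267495 on the plus strand, chr15:79516288-79516407 on the plus strand, chr7:114254681-114254800 on the minus strand and chr19:46152438-46152557 on the plus strand of GRCm38.p6, each just upstream of the RefSeq start; Copb1 and Gbf1 were picked after their values were seen. The sequences run 5′ to 3′ along the gene, with the match in capitals.
Sec24d: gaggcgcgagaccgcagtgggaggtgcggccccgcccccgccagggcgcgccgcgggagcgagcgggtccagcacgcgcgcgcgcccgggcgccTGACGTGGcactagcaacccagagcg
Kdelr3: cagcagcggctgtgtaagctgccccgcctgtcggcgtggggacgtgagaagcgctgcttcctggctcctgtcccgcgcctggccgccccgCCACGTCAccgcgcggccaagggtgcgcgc
Copb1: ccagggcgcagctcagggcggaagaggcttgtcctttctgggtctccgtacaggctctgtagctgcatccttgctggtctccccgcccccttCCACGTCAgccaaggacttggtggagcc
Gbf1: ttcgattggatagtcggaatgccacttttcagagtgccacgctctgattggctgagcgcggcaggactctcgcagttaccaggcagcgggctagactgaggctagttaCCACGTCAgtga
The match begins 26 bases before the start in Sec24d, 30 in Kdelr3, 28 in Copb1 and 12 in Gbf1, and it is read on the opposite strand (CCACGTCA) in the last 3. The 7 genes with a match did not move as a block: in KO-labelled starvation Sec24d, Kdelr3, Copb1, Sec23a, Copb2 and Arf1 rose by 1.54, 1.24, 1.02, 0.85, 0.50 and 0.13, and Gbf1 changed by -0.14. A match of letters is not shown to be a site in use, and genes that rose without one, such as Surf4 and Mcfd2, have windows in which these letters are not found.

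Other genes of ER-Golgi transport were taken from 6 lists of 102 symbols, 96 of them tested. In KO-labelled starvation 68 of the 96 rose and 20 fell, and in WT 46 rose and 34 fell, with medians of 0.45 and 0.10. That is 70.8% higher and 20.8% lower in KO-labelled cells (39.4% and 40.3% of all genes tested) and 47.9% and 35.4% in WT (36.7% and 44.8% of all). The interaction was higher for 46 and lower for 20, or 47.9% and 20.8%, against 34.1% and 30.4% of all genes. The ER-Golgi SNAREs, which fuse the vesicles, rose in 15 of 18 cases and fell in 2 in KO-labelled cells, against 7 and 6 in WT. The TRAPP tethers had 9 of 14 higher and 4 lower in KO-labelled cells and 6 and 6 in WT, the latter near the shares of all genes. In the other COPII and export list 16 of 21 rose and 3 fell in KO-labelled cells, and 12 rose and 4 fell in WT. Of the other COPI, ARF and ARFGAP genes 6 of 10 rose and 4 fell in KO-labelled cells, with the reverse in WT, and of the tethers, golgins and Rab GTPases 15 of 23 rose and 5 fell, against 11 and 8 in WT. Of the 10 tested ER stress and secretory transcription factors, 7 rose and 2 fell in KO-labelled cells and 6 rose and 4 fell in WT.

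Among these, Ctage5, a partner of TANGO1 in collagen export, rose by 1.83 ± 0.041 in WT and 1.25 ± 0.038 in KO-labelled cells, and Erp44, which retrieves ER enzymes, by 1.16 and 1.07. Sec16b, a paralog of Sec16a, fell in WT by 1.82 ± 0.12 on the log2 scale, and Pef1 by 0.46. The tether Uso1 (p115) rose by 1.59 and 1.80, Cog3 by 1.35 in WT, and Rab1b, a GTPase of ER export, changed by -1.38 and -1.30. Cog7 (-1.20), Trappc1 (-1.82) and Trappc5 (-1.07) fell in WT, while Trappc10 (1.53) and Trappc8 (1.31) rose. Arfgef2 (1.25), an exchange factor for ARFs, rose in WT, and Arf2 (-1.42) and Arf3 (-1.07) fell. The SNARE gene Bet1 changed by -1.74 in WT and 0.25 in KO-labelled cells, Stx17 by -1.57 and -0.68, and the fusion factors Napb and Napa by 2.18 and 1.57 in WT.

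Transcription factors known to act on secretory genes moved in both directions. Atf6, whose protein is cleaved in the Golgi under ER stress, rose by 2.72 ± 0.040 in WT and 2.31 ± 0.035 in KO-labelled cells, a smaller response in KO-labelled cells (interaction -0.41 ± 0.053), and Ddit3 (CHOP) rose by 5.20 and 5.48. Xbp1 was read at 35.3 and 32.8 CPM (fed WT), 123 and 122 (starved WT), 42.6 and 39.5 (fed KO-labelled) and 163 and 165 (starved KO-labelled) and rose by 1.84 ± 0.048 and 1.99 ± 0.045, with a difference of 0.15 ± 0.065 (adjusted p = 0.0532). Creb3l2, known as an activator of Sec23a in cartilage, was read at 46.3 and 43.8 CPM (fed WT), 21.6 and 25.0 (starved WT), 46.1 and 43.2 (fed KO-labelled) and 42.9 and 43.3 (starved KO-labelled). It fell in WT (-0.95 ± 0.067), differed by -0.05 ± 0.059 in KO-labelled cells (adjusted p = 0.422), and its interaction was 0.90 ± 0.090. Creb3l1, a related factor of bone matrix secretion, fell by 1.21 ± 0.052 on the log2 scale in WT and by 0.66 ± 0.054 in KO-labelled cells, and Tfeb, of lysosome genes, fell by 1.34 ± 0.10 in WT and was 5.66-fold lower in starved than in fed KO-labelled cells (interaction -1.16 ± 0.16).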

How the data were processed

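The table the authors deposited holds raw counts of reads for RefSeq transcripts (31055 rows, 23366 symbols); mm9, bedtools and TopHat2 2.0.9 appear without roles in the submitters' processing notes. The sources used here do not give the strand setting, the handling of reads with several matches or filters. Each row names a gene. Another 4 columns could be tied to no sample's labels and were left unused. Groups and replicate numbers came from the sample titles.

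Each symbol was read from its row with the highest total. Counts were tested over all genes with edgeR 4.0.16 in R 4.3.3: TMM, filterByExpr (14418 genes), 1 coefficient per group over 8 libraries (residual degrees of freedom: 4), quasi-likelihood F tests, and p-values adjusted by Benjamini-Hochberg with a threshold of 0.05. The SE is the log2 fold change over the root of F, so it is derived from the test. The common biological coefficient of variation was 0.0341. The members, lists and tests were chosen with earlier results of these data known. The text names every member and gives library values for the 4 highest and 4 lowest called members of each comparison and the paralog sets, and fold changes for the 2 called genes highest and the 2 lowest in WT starvation of each other list; Xbp1 and Creb3l2 were added after their values were seen. The value of 1 gene that this rule names is not reported here. Transcript lengths for 41 of 41 genes came from GENCODE M21 (GRCm38) by RefSeq accession, another build than the counts, and exons of 14 genes overlap another gene there, 8 of them a protein-coding gene (Arf4, Copa, Copg2, Kdelr3, Surf4, Tmed1, Tmed5 and Tmed7). Libraries within a group correlated at r = 0.9911 to 0.9948 across genes and differed by more than sampling noise (chi-square per degree of freedom 3.31 to 6.01). Alternatives were DESeq2 1.42.0, its size factors in edgeR, library totals, no filter, a minimum of 5 CPM in 2 libraries, summed isoforms, each library left out, a replicate block and fits of 2 groups.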

Additional observations from a re-analysis of the deposited data

Results flagged for a closer look

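The starvation response differed between the genotype labels by the interaction test for 32 of the 40 tested carrier genes, against 64.5% of all genes tested. As log2 fold change in KO-labelled cells minus that in WT, the differences above 1 were Kdelr3 1.96, Sec24d 1.62, Kdelr2 1.51, Copz1 1.35, Mcfd2 1.23, Surf4 1.13, Tmed9 1.12, Copz2 1.02 and Copg1 1.01. Those from 0.59 to 0.98 were Lman1 0.98, Sec23a 0.94, Tmed3 0.94, Preb 0.79, Sec16a 0.78, Tmed2 0.78, Sec23b 0.77, Copa 0.74, Lman2 0.71, Copg2 0.69, Sec22b 0.60 and Copb2 0.59. Smaller positive differences were Cope 0.31, Sar1a 0.27, Arcn1 0.26, Arf4 0.25, Sec31a 0.23, Tmed5 0.22, Tmed7 0.19, Kdelr1 0.16 and Copb1 0.14. The 2 negative differences were Arf1 -0.22 and Sec24b -1.22. The sex of the cells differed with the label, so which of them the differences go with cannot be told apart. Groups of 2 libraries are too small to look for a library that stands apart.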

How the results depend on the processing

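Over the alternatives tried, 2972 of the values for single genes kept their direction and their side of the threshold, 62 gained a call, 90 lost one and 36 turned sign; where a cause is not given here it was not tested. The counts in KO-labelled starvation stayed within 1.5 times of the main counts (29 to 35 higher, 4 to 6 lower), while library totals left 5 higher and 28 lower in WT starvation. In starved cells the number lower in KO-labelled cells was 5, and 11 with DESeq2, 11 with its size factors in edgeR, 2 with library totals and 9 with the minimum of 5 CPM. For the interaction, library totals left 1 lower. Leaving out 1 library at a time gave 23 to 26 higher and 9 to 12 lower in WT starvation, 35 higher and 4 to 5 lower in KO-labelled starvation, 10 to 13 higher and 22 to 25 lower between fed cells, 25 to 29 higher and 5 to 11 lower between starved cells, and 24 to 31 higher and 2 to 5 lower in the interaction; a lone library was assumed to vary like the other groups.

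With library totals the WT starvation values turned to Sec23b -0.16, Copa -0.067, Cope -0.069, Copz1 -0.41, Arcn1 -0.34, Arf1 -0.11, Arf4 -0.15, Tmed3 -0.32, Tmed4 -0.22, Tmed5 -0.074, Tmed7 -0.021, Tmed9 -0.32, Tmed10 -0.24, Lman1 -0.045, Lman2 -0.029, Mcfd2 -0.19, Surf4 -0.17 and Sec22b -0.21. In KO-labelled starvation they turned to Sar1a -0.033, Copg2 -0.045 and Arf1 -0.13, and between fed cells to Arf1 0.023. Between starved cells they turned to Sar1a 0.25, Sec13 0.11, Sec24a 0.24, Sec31a 0.25, Arcn1 0.18, Arf4 0.25, Gbf1 0.25 and Tmed1 0.23, and in the interaction to Sec24a 0.19. Without starved WT replicate 1, Sec16a in WT starvation was 0.11. With 1 library left out at a time, Sec23a in WT starvation ranged from -0.092 to 0.0061 and the interactions ranged from -0.13 to 0.027 for Sec24c, -0.00091 to 0.16 for Copb1 and -0.0017 to 0.22 for Tmed7; the bounds that turned sign came without starved WT replicate 1 for Sec24c and without starved WT replicate 2 for the others.

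With the replicate number as a block, the counts were 24 higher and 12 lower in WT starvation, 35 and 5 in KO-labelled starvation, 11 and 24 between fed cells, 29 and 5 between starved cells and 30 and 2 in the interaction. Same-numbered libraries did not deviate together (correlations of -0.0189 to 0.0141). The labels do not state a pairing, and these correlations cannot exclude one. Limits are set by 2 libraries a group, by counts whose handling of strands and near copies is not given, and by the scaling. A shift of all members against the rest of the RNA reads differently under TMM and under library totals.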
